A study of Mus musculus with 12 samples.

Results

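Neurotransmitter receptors outside the GABA-A group were followed as 82 protein-coding genes, chosen by gene symbol from the 40690 gene identifiers of the count table. They comprise subunits of the ionotropic glutamate receptors (AMPA, kainate, NMDA and delta), glycine and nicotinic acetylcholine receptors and the serotonin channel Htr3, together with the G protein-coupled receptors for glutamate, GABA (GABA-B), acetylcholine, serotonin, dopamine and adrenaline or noradrenaline. Each gene was counted once. The rule uses gene symbols and biotype only, but it was set with earlier results of these data known.

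RNA was measured in 12 C57BL/6J mouse embryos at embryonic day 14.5, with 1 polyadenylated-RNA library from the dissected brain of each embryo, labelled as whole brain. In the LC1 experiment, 3 LC1 knockout embryos were set against 3 wild types, and all 6 were female. In the RKI experiment, 3 embryos homozygous for the rs77910749 knock-in were set against 3 embryos wild-type for that variant, with 1 female and 2 males in each group. LC1 is a non-coding element near Pou3f2, a POU-domain transcription factor gene, and rs77910749 is a human variant inside it. None of the receptor genes was altered by design, so their levels do not check the genotype labels. The labels name no Cre driver or tissue restriction for the knockout. Mutant and wild-type embryos were matched for litter and sex per the labels' protocols, which do not say which embryos shared a litter. Library totals ran from 18192984 to 26566769 counts.

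Ionotropic receptors are ion channels built from several subunits, and the subunits that are made decide what a channel conducts and how long it stays open. Metabotropic receptors signal through G proteins. In the embryonic forebrain many of these genes are transcribed before synapses form, and some early subunits are known to give way to others after birth, as GluN2B to GluN2A in NMDA receptors and alpha2 to alpha1 in glycine receptors.

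Markers of the labelled tissue were present in every library. All 12 pan-neuronal markers passed the filter on low counts, with Tubb3 at a mean of 1451 RPKM (reads scaled to gene length and to the library total). The Hox genes of the hindbrain, which a whole brain includes, were at or near 0. Of 20 midbrain and hindbrain markers 8 passed the filter, Hoxb2, Hoxb3 and Fev were listed at 0 in every library, and Hoxa2 had 3 reads in all 12 libraries together. Summed over the list, these markers reached 41.1 to 51.3 CPM (counts scaled to the library total) in LC1 wild types, 32.3 to 48.0 in knockouts, 15.2 to 31.4 in RKI wild types and 27.8 to 41.4 in homozygotes. Their part in the levels of receptors known from the hindbrain was not tested. One library, the RKI wild-type embryo A16, stood apart in receptor and marker levels, and the counts and leading genes of the RKI comparison are given with and without it. In a bulk sample, fewer cells of a type and less RNA per cell cannot be told apart. Of the 82 receptor genes 63 had enough counts to be tested, 42 had a mean above 1 RPKM and 12 a mean above 10 RPKM. All 82 had at least 1 read in the 12 libraries. The plot of levels by family gives each library's value.

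**Figure D1:**
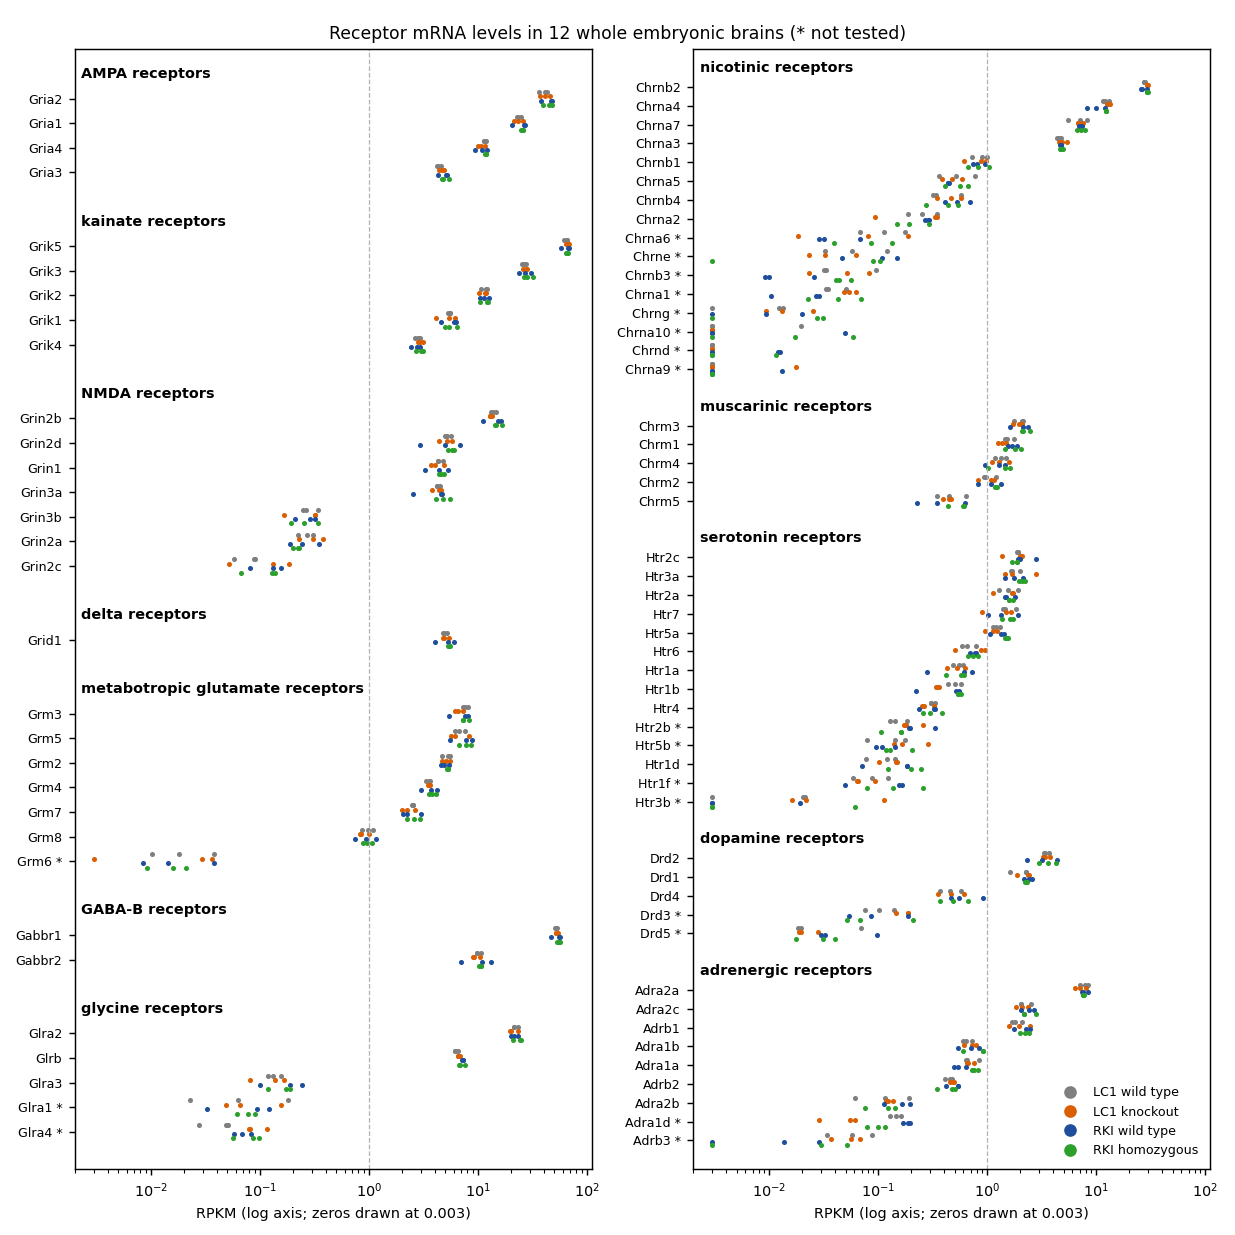
RPKM (log axis) of each of 80 of the 82 receptor genes in 12 embryonic brains, grouped by receptor family and coloured by group, with zeros drawn at 0.003 and the dashed line at 1 RPKM. Genes marked with an asterisk are the 19 that were not tested; Grik5, Gabbr1 and Gria2 stand at the right-hand end and Chrna9 and Chrnd at the left.

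AMPA receptors carry fast excitatory transmission, and all 4 of their subunit genes were transcribed above 1 RPKM. Gria2, whose edited subunit makes AMPA channels impermeable to calcium, ran from 36.2 to 48.0 RPKM with a median of 42.04. Gria1 ran from 20.6 to 27.2 RPKM with a median of 24.7. Gria4 had a median of 11.5 RPKM and Gria3 of 4.66 RPKM. The order was the same in 12 of 12 libraries, and the ranges of neighbours in that order did not overlap. Gria2 stood 1.74-fold above Gria1 (1.53 to 1.96 over the libraries) and 8.98-fold above Gria3 (8.30 to 10.1).

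By gene-level RPKM, the highest of the 82 receptor genes was a kainate subunit. Grik5, which encodes GluK5, a subunit that forms channels only together with GluK1 to GluK3, ran from 57.7 to 68.4 RPKM with a median of 65.7. Grik3 ran from 23.7 to 31.7 RPKM with a median of 27.3 and Grik2 from 10.2 to 12.7 RPKM with a median of 11.7. Grik1 had a median of 5.51 RPKM. Grik4, the other subunit of the GluK5 type, had a median of 2.88 RPKM, so that Grik5 exceeded it 22.9-fold (20.7 to 24.2). None of the 5 ranges overlapped with its neighbour. In the transcript table the order at the top differed, with Grik5-001 at 24.1 to 29.1 RPKM and Gabbr1-002, 1 of 11 Gabbr1 transcripts, at 25.6 to 36.5 RPKM. For Grik2 the gene count was 12.1 times the sum of the deposited transcript estimates, beside 2.70 for Grm2 and under 2 for the other receptor genes above 1 RPKM, so its level depends on which table is read.

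Among NMDA receptor genes the embryonic subunit predominated. Grin2b ran from 11.2 to 16.5 RPKM with a median of 13.9, whereas Grin2a ran from 0.189 to 0.378 RPKM with a median of 0.236. The ratio of Grin2b to Grin2a was 53.6, with 35.3 and 83.0 as the extremes of the 12 libraries. Grin2d, the other subunit known from early brain, had a median of 5.25 RPKM. Grin1, the obligatory subunit, lay at 4.41 RPKM and Grin3a, a glycine-binding subunit of juvenile brain, at 4.44 RPKM. Grin2d was above Grin1 in 11 of 12 libraries, and the ranges of Grin2d, Grin1 and Grin3a overlapped. Grin2c, known from adult cerebellum, had a median of 0.110 RPKM. Grid1, a delta receptor gene, ran from 4.05 to 5.97 RPKM with a median of 5.21.

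Of the 8 metabotropic glutamate receptor genes 6 had a mean above 1 RPKM. Grm3, a Gi-coupled receptor, ran from 5.38 to 8.21 RPKM with a median of 7.32, and Grm5, a Gq-coupled receptor, from 5.50 to 8.79 RPKM with a median of 7.16, so the leading genes overlapped and either was higher in some libraries (Grm3 in 7 of 12). Grm2 had a median of 5.25 RPKM. Grm6, the receptor of retinal ON bipolar cells, had 29 reads in all and was not tested. GABA-B receptors work only as a pair of Gabbr1 and Gabbr2. Gabbr1 ran from 47.2 to 56.3 RPKM with a median of 53.0, and Gabbr2 from 6.99 to 13.2 RPKM with a median of 10.3. Gabbr1 was thus 5.25-fold higher (4.23 to 6.75).

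Glycine receptors showed the fetal alpha subunit. Glra2 ran from 19.6 to 24.5 RPKM with a median of 21.4 and Glrb, the subunit that anchors the receptor to gephyrin, from 6.11 to 7.52 RPKM with a median of 6.73. Glra3 had a median of 0.146 RPKM. Glra1, the adult alpha subunit of brain stem and spinal cord, ran from 0.0227 to 0.182 RPKM with a median of 0.0716 and rested on 53 reads in the 12 libraries. The ratio of Glra2 to Glra1 was 260, with 125 and 932 as extremes, the width of which follows from the few Glra1 reads.

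The 16 nicotinic subunit genes fell into 4 above 1 RPKM and 12 below. Chrnb2 and Chrna4 encode the subunits of the main high-affinity nicotinic receptor of brain. Chrnb2 ran from 25.7 to 29.6 RPKM with a median of 28.9 and Chrna4 from 8.27 to 13.3 RPKM with a median of 12.1. Chrna7, which forms homomeric receptors, ran from 5.50 to 8.14 RPKM with a median of 7.11. Chrna3, a subunit of ganglionic receptors, ran from 4.35 to 5.37 RPKM with a median of 4.71 and was 10.4-fold above Chrnb4, its usual ganglionic partner (6.89 to 17.0). Annotated exons of Adar on the opposite strand cover 16.3% of the exon bases of Chrnb2. Use of strand in the counting was not stated in the labels, so reads of the pair cannot be told apart. Of the subunits of the muscle receptor, Chrnb1 was tested at 0.616 to 1.03 RPKM and the others had few reads. Chrna1 had 46 reads, Chrne 31, Chrng 15 and Chrnd 3 in the 12 libraries together. Of 13 skeletal muscle markers 5 passed the filter, Myf5 was at 0, and their sum was 7.93 to 9.91 CPM over all libraries. Chrna9 and Chrna10, known from cochlear hair cells, had 2 and 8 reads. Gene counts stood below 0.4 times the transcript estimates for Glra3, Chrng, Chrna10 and Drd5, so these low levels differ between the deposited tables.

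Of the receptors for acetylcholine and the monoamines that couple to G proteins, none had a mean above 10 RPKM, and Adra2a was the highest. The highest muscarinic gene was Chrm3 at 1.62 to 2.48 RPKM, followed by Chrm1, Chrm4 and Chrm2 with medians of 1.54, 1.31 and 1.12 RPKM and overlapping ranges. Serotonin receptors were led by Htr2c at 1.36 to 2.79 RPKM, the Gq-coupled receptor of choroid plexus and many neurons, and by the channel subunit Htr3a at 1.44 to 2.77 RPKM. Htr2a had a median of 1.57 RPKM and Htr7 of 1.46 RPKM. These 4 serotonin receptor ranges overlapped. Of the dopamine receptors Drd2 ran from 2.33 to 4.36 RPKM with a median of 3.38 and Drd1 from 1.597 to 2.57 RPKM with a median of 2.27. Drd2 was the higher in 12 of 12 libraries although the ranges overlapped. Drd4 had a median of 0.477 RPKM, Drd3 of 0.120 and Drd5 of 0.0287. Adra2a, a Gi-coupled noradrenaline receptor, led the adrenergic genes at 6.38 to 8.41 RPKM, above Adra2c at 1.83 to 2.79, Adrb1 at 1.59 to 2.47 and Adra1b at 0.539 to 0.908 RPKM.

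The RefSeq promoter table (GRCm38.p6, windows of 300 bases, 250 before and 50 after the annotated start) held 66 windows for 58 of the 82 genes. The windows of the 3 highest and the 3 lowest receptor genes with a single listed window are printed to show how their base content differs, 5′ to 3′, with CG dinucleotides in capitals.

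Grik5, chr7:25072320-25072619, minus strand: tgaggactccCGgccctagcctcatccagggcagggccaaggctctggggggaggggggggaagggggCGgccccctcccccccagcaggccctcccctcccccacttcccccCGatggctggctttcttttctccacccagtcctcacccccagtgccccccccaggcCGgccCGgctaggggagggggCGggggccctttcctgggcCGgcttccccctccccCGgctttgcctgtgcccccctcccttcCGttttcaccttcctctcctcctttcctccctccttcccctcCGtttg
Gabbr1, chr17:37045716-37046015, plus strand: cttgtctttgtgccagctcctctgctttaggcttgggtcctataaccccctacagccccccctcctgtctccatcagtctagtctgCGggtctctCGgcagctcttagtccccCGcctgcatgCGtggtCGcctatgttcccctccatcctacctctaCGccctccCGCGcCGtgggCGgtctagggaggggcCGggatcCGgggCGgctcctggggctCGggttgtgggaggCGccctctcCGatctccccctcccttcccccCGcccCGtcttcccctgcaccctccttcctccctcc
Gria2, chr3:80802786-80803085, minus strand: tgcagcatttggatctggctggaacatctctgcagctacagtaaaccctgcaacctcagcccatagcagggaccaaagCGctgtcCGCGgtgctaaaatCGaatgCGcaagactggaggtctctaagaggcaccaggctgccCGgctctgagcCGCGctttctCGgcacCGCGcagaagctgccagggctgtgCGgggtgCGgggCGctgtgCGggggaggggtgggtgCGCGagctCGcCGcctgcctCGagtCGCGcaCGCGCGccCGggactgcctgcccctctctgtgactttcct
Chrng, chr1:87205561-87205860, plus strand: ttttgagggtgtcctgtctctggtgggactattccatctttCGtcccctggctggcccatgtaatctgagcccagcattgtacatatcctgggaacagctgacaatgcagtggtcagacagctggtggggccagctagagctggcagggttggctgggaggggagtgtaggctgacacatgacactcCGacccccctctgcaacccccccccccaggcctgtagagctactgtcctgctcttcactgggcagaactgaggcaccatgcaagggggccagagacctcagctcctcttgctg
Chrna10, chr7:102116664-102116963, minus strand: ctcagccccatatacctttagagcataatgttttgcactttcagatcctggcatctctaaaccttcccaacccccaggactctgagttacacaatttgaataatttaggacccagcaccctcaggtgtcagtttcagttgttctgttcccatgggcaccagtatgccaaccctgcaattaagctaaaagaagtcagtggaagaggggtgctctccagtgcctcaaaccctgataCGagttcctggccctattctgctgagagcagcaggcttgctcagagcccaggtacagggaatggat
Chrna9, chr5:65966874-65967173, plus strand: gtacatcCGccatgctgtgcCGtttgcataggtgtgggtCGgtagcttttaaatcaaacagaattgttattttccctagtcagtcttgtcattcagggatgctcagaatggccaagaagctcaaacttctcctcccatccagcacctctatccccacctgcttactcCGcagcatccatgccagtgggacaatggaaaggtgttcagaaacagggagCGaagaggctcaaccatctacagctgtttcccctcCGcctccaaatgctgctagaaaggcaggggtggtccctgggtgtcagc

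The first 3 windows hold 10, 18 and 26 CG dinucleotides and the last 3 hold 2, 1 and 6. Genes with several windows were taken at the window with the most CG. The median was then 22 CG for the 31 genes above 1 RPKM and 8 for the 27 at or below 1 RPKM. The ranges of these gene groups overlapped widely, 5 to 50 against 1 to 38. Over all 32851 windows of the table, each counted singly and so not by the same measure, the median was 7. ATGCAAAT, the octamer that POU-domain factors are known to bind, was searched on both strands. It occurred in 0 of the 66 receptor windows and in 1.74% of all windows of that length, which says only that these letters are not in these windows.

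The first comparison asked whether receptor transcripts differed in brains that lack LC1. None of the 63 tested genes passed an adjusted p of 0.05 with edgeR's quasi-likelihood test, fitted on all 12 libraries with a term for sex and adjusted over 16002 genes (0% of all genes passed). Of the 63, 0 had an unadjusted p under 0.05, beside 2.09% of all genes. DESeq2 and limma-voom also gave 0, beside 1.14% and 2.07% of all genes. Among the 5 genes with the smallest p were Htr1b, Chrnb2, Grm3 and Grin2c.

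Htr1b, a Gi-coupled presynaptic serotonin receptor, had 0.433, 0.569 and 0.505 RPKM in the wild types and 0.334, 0.363 and 0.344 RPKM in the knockouts. All 3 knockouts lay below all 3 wild types. The log2 difference was -0.52 (SE 0.26, 95% interval -1.07 to 0.03), with an unadjusted p of 0.0608 and an adjusted p of 1 in edgeR. The knockouts were close to each other and the wild types spread over a wider range. Annotated exons of an antisense transcript cover 18% of the exon bases of Htr1b.

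Chrnb2 had 27.3, 27.9 and 27.2 RPKM in the wild types and 29.6, 29.1 and 29.1 RPKM in the knockouts, a log2 difference of 0.10 (SE 0.06). The 3 knockouts lay just above the 3 wild types. Grm3 had 7.26, 7.62 and 8.05 RPKM against 6.16, 7.35 and 6.55 RPKM, a log2 difference of -0.19 (SE 0.12). Grin2b had 13.2, 13.7 and 14.5 RPKM against 12.9, 12.9 and 13.4 RPKM. On TMM-scaled log2 CPM, 4 of the 63 genes had groups that did not overlap (Grin2b, Grm3 and Htr1b lower, Chrnb2 higher in the knockouts), beside 7.16% of all genes. In RPKM, the Grm3 and the Grin2b groups overlapped. Grin2c, at the lowest level of the NMDA genes, differed by 0.64 (SE 0.45) on the log2 scale.

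The precision differed with the level of the gene. The 95% interval of the fold change lay within 1.5-fold either way for 45 of the 63 genes, beside 79.4% of all genes. These 45 included all 4 AMPA, all 5 kainate, both GABA-B and all 7 tested metabotropic glutamate genes. For Grik5 the difference was 0.05 (95% interval -0.09 to 0.18), for Gabbr1 0.03 (-0.12 to 0.17) and for Gria2 0.04 (-0.14 to 0.23) on the log2 scale. Of the 63 genes 26 had a log2 fold change above 0 (41.3%), beside 48.6% of all genes, and the median was -0.02 beside -0.00 over all genes. The count of 26 moved to 39 without knockout embryo 7, which had the lowest receptor levels of the LC1 embryos.

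**Figure D2:**
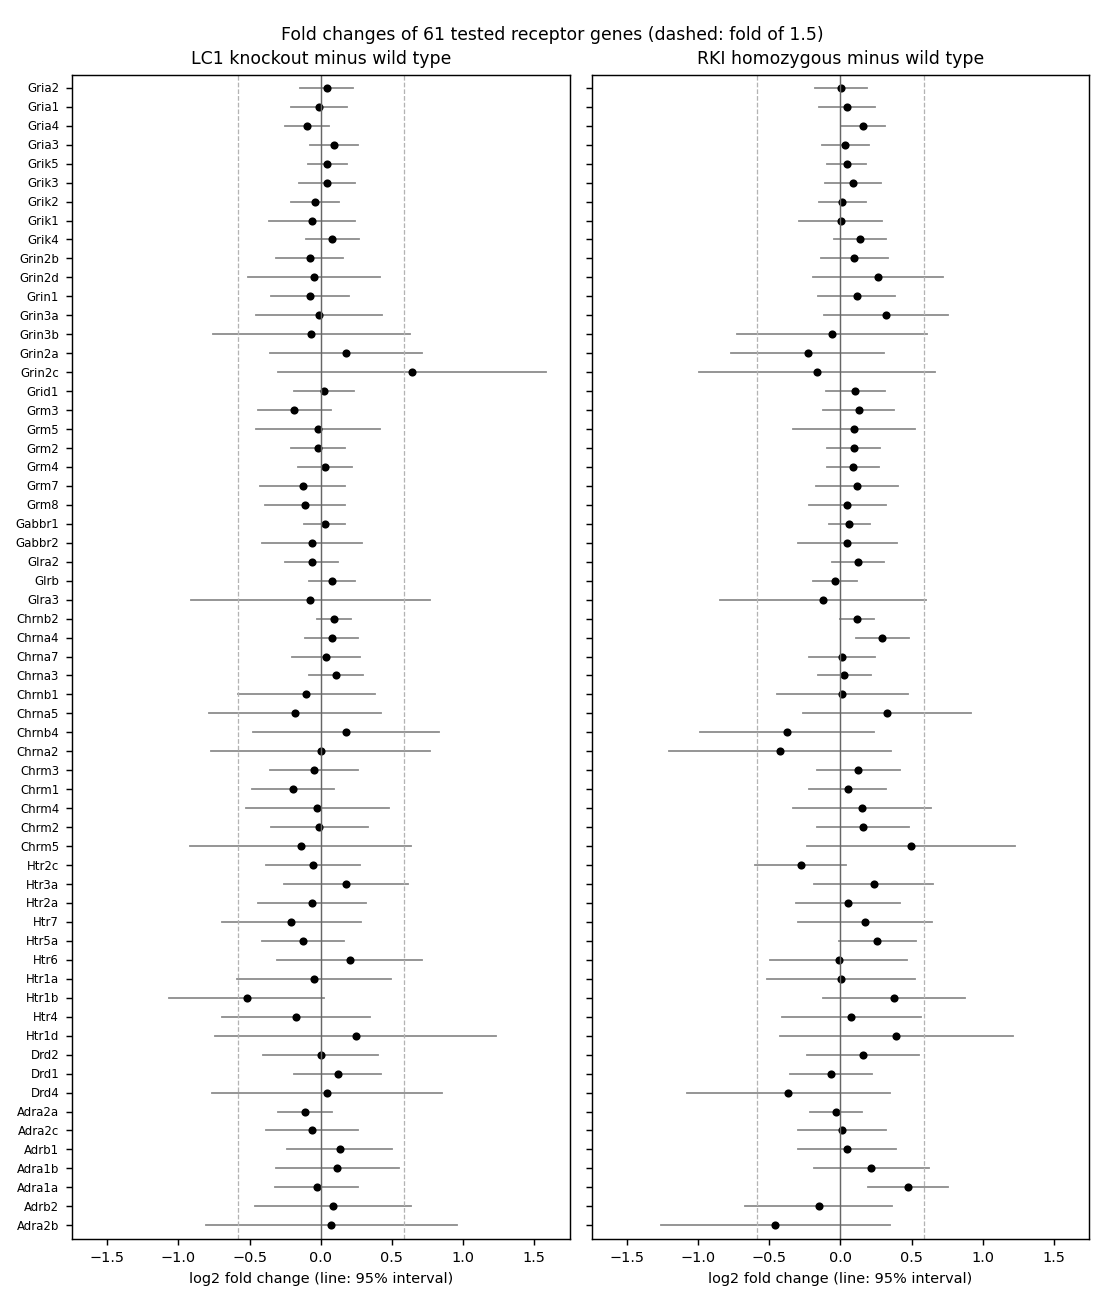
Log2 fold change of each of 61 of the 63 tested receptor genes (black point) with its 95% interval (grey line), for LC1 knockout minus wild type on the left and RKI homozygous minus wild type on the right; dashed lines mark a fold of 1.5. None passed an adjusted p of 0.05, and Htr1d, Grin2c and Adra2b, all at low levels, have the widest intervals in both comparisons.

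The second comparison asked the same of the rs77910749 knock-in. Again 0 of the 63 genes passed the adjusted threshold in edgeR, with 0% of all genes passing. An unadjusted p under 0.05 was reached by 3 genes (Adra1a, Chrna4 and Gria4), beside 1.92% of all genes. It was reached by 2 in DESeq2, beside 1.11% of all genes, and by 3 in limma-voom, beside 1.94%.

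Adra1a, a Gq-coupled noradrenaline receptor, had 0.541, 0.640 and 0.493 RPKM in the wild types and 0.728, 0.824 and 0.757 RPKM in the homozygotes. All 3 homozygotes lay above all 3 wild types. The log2 difference was 0.47 (SE 0.13, 95% interval 0.19 to 0.76), with an unadjusted p of 0.00259 and an adjusted p of 1 in edgeR, and it was 0.42 without the wild-type embryo A16. In the LC1 embryos Adra1a ran from 0.634 to 0.835 RPKM, so the RKI homozygotes lay within the range of the LC1 brains and 2 of the 3 RKI wild types below it.

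Chrna4 had 10.01, 12.02 and 8.27 RPKM in the wild types and 12.1, 12.2 and 12.3 RPKM in the homozygotes. The homozygotes were nearly equal to each other, while the wild types spread from 8.27 in A16 to 12.02 in A9. The log2 difference was 0.29 (SE 0.09, unadjusted p = 0.00410, adjusted p = 1 in edgeR) and 0.17 without A16. Chrnb2, its partner subunit, had 26.4, 29.2 and 25.7 against 28.9, 29.0 and 29.6 RPKM, a log2 difference of 0.12 (SE 0.06). Both experiments therefore gave Chrnb2 a small positive difference, neither past the threshold.

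Gria4 had 10.8, 12.1 and 9.35 RPKM in the wild types and 11.9, 11.9 and 11.7 RPKM in the homozygotes. Its log2 difference was 0.16 (SE 0.07), and 0.07 without A16. Htr5a, a Gi-coupled serotonin receptor, had 1.34, 1.41 and 1.05 against 1.55, 1.46 and 1.503 RPKM. All 3 homozygotes lay above all 3 wild types, and the log2 difference was 0.26 (SE 0.13), or 0.13 without A16. On TMM-scaled log2 CPM, Htr5a and Adra1a were the 2 of 63 genes whose groups did not overlap, beside 5.67% of all genes. In RPKM the groups of Chrna4 and Htr2c were apart as well, but the share over all genes was not counted in RPKM.

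**Figure D3:**
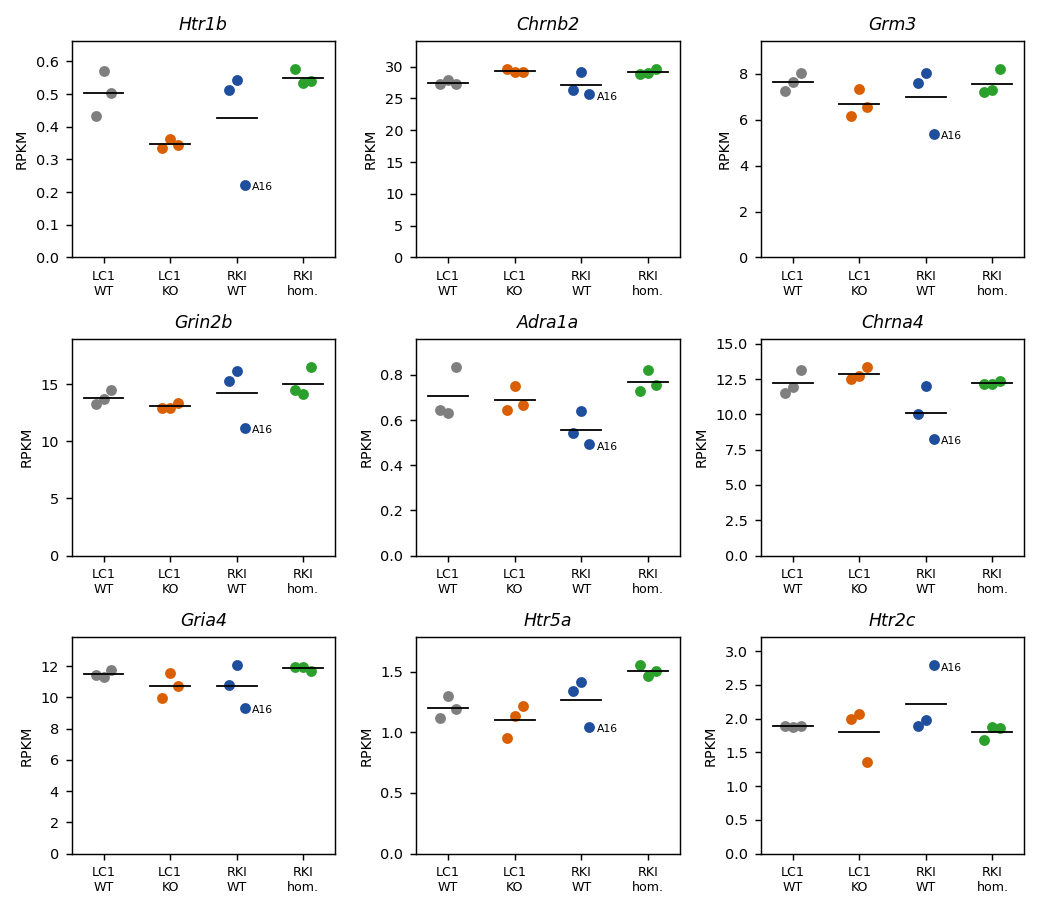
RPKM (axes from 0) of 9 receptor genes in each embryo by group, with black bars at the group means and the wild-type embryo A16 labelled. The 3 LC1 knockouts lie below the 3 wild types for Htr1b, the 3 RKI homozygotes lie above the 3 wild types for Adra1a and Htr5a, and A16 is the lowest RKI wild type for every gene drawn except Htr2c.

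Of the 63 genes 49 had a log2 fold change above 0 in the RKI comparison (77.8%), beside 50.6% of all genes, and their median was 0.06. By family these were all 4 AMPA, all 5 kainate, all 7 tested metabotropic glutamate, both GABA-B and all 5 muscarinic genes, 8 of 10 serotonin and 6 of 8 nicotinic genes. Among glycine and dopamine receptor genes 1 of 3 each was above 0. This lean depended on single embryos, most on the wild type A16, which was singled out after its values were seen. The count was 48 without A9 or A10, 53 without A2, 44 without A18 and 38 without A1. Of all genes, 48% to 51.2% were above 0 in these fits. Without A16, 22 of the same 63 genes were above 0, beside 51.2% of all genes, and the median was -0.04. Of the 49 genes, 29 were no longer above 0 and 20 still were, among them Adra1a, Chrna4, Chrna5 (0.32) and Chrm5 (0.23). The interval of the fold change lay within 1.5-fold for 42 of the 63 genes, beside 80.3% of all genes.

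**Figure D4:**
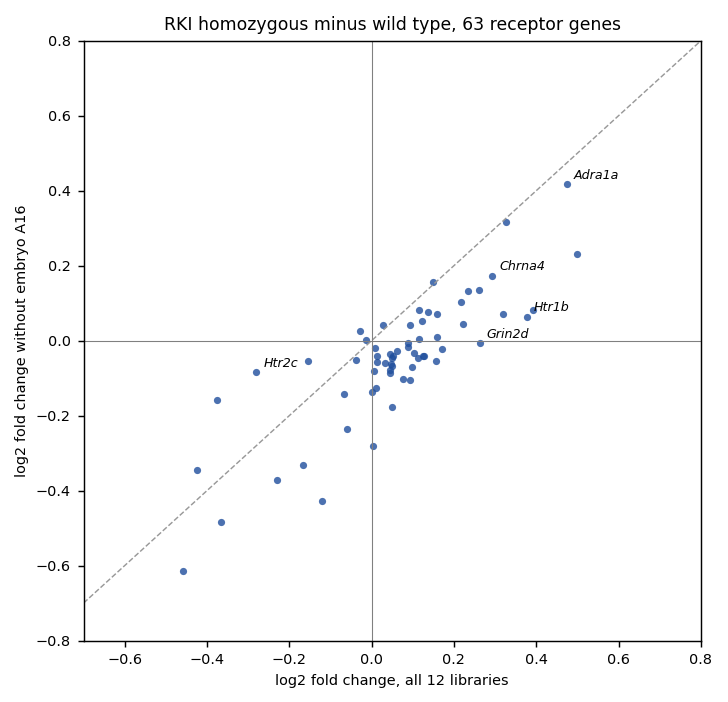
Log2 fold change of the 63 tested receptor genes between RKI homozygotes and wild types, from all 12 libraries (horizontal axis) and without the wild-type embryo A16 (vertical axis); the dashed line marks equal values. Most points lie below the dashed line and 29 of 49 positive values are no longer above 0, while Adra1a keeps 0.42 of 0.47.

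Embryo A16 stood apart in receptor levels. It had the lowest level of the 12 libraries for 35 of the 63 genes (55.6%), beside 16.5% of all genes, on TMM-scaled log2 CPM. In RPKM it was lowest for 30 of 63, and the share over all genes was not counted there. The deviation from the mean of the 12 libraries was largest for Htr1b at -0.95, Htr1a at -0.88, Chrm5 at -0.84, Grin2d at -0.82, Grin3a at -0.78 and Htr1d at -0.75. Grin2d, for example, had 2.96 RPKM in A16 and 4.42 to 6.76 RPKM in the other 11 embryos. Grin3a had 2.52 RPKM against 3.81 to 5.57, and Gabbr2 6.99 RPKM against 9.05 to 13.2. By family A16 was lowest for 6 of 7 metabotropic glutamate, 5 of 7 NMDA, 4 of 5 kainate, 3 of 4 AMPA and both GABA-B genes, but for 0 of 3 glycine and 2 of 8 nicotinic genes. In contrast 2 of the 63 genes, Htr2c and Chrnb4, were highest in A16 on TMM-scaled log2 CPM, beside 14.5% of all genes. In RPKM 3 of 63 were highest, again without a share over all genes. Htr2c had 2.79 RPKM in A16 against 1.36 to 2.07 in the others, and Chrnb4 0.693 RPKM against 0.273 to 0.575.

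The markers of A16 moved as well. All 12 proliferation markers were highest in A16, with a median deviation of 0.36 and a sum of 1716 CPM against 1140 to 1396 in the other 11 libraries. The pan-neuronal markers had a median deviation of -0.13 with 6 of 12 at their lowest, and their sum of 8159 CPM was the lowest of the 12. The midbrain and hindbrain markers that passed the filter had a median deviation of -1.89, with 7 of 8 at their lowest. The choroid plexus markers had a median deviation of 0.22, and the cortical ones 0.16. The part of these markers in the receptor levels of A16 was not tested. The opposite deviation was seen in A9, the female RKI wild type, which had the highest level for 21 of 63 receptor genes (33.3%), beside 10.3% of all genes, and a median deviation of 0.18. Its pan-neuronal markers deviated by 0.11 and its proliferation markers by -0.15.

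**Figure D5:**
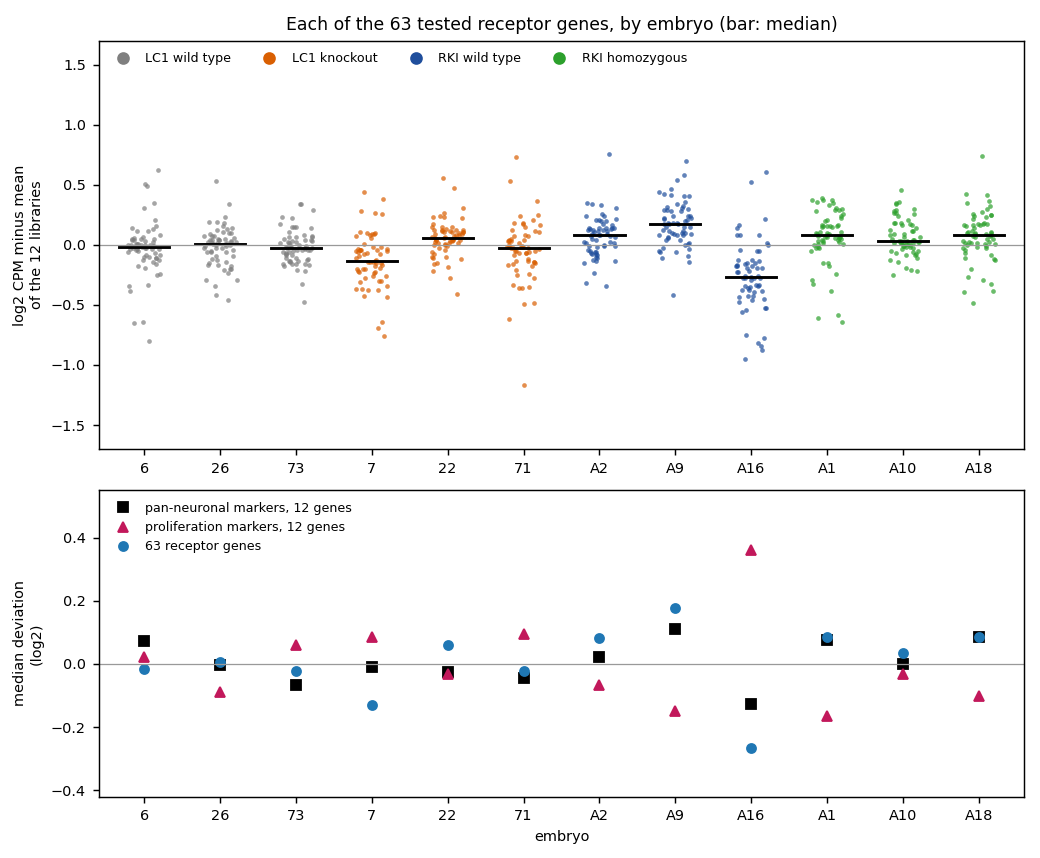
Top, log2 CPM of each of the 63 tested receptor genes minus its mean over the 12 libraries, by embryo and coloured by group, with a bar at the median; bottom, the median deviation of the receptor genes (circles), 12 pan-neuronal markers (squares) and 12 proliferation markers (triangles). The receptor median is lowest in A16 (-0.26) and highest in A9 (0.18), and the proliferation markers are highest in A16 (0.36).

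The difference between the effects of the knock-in and the knockout was tested directly, and 0 of 63 genes passed the adjusted threshold (0% of all genes). The smallest unadjusted p belonged to Adra1a (log2 difference 0.50, SE 0.19), Htr1b (0.90, SE 0.35) and Gria4 (0.25, SE 0.10). Their unadjusted p in edgeR was 0.0181, 0.0206 and 0.0266, and their adjusted p was 1. Without A16 the differences were 0.44, 0.58 and 0.17, with an unadjusted p of 0.0422, 0.0485 and 0.0920 in edgeR. These 3 were the only members under 0.05 unadjusted, beside 2.42% of all genes. Htr5a (0.38, or 0.26 without A16) and Grm3 (0.31, or 0.14 without A16) followed. Of the 63 genes 45 had a difference above 0, beside 52.1% of all genes, and 27 without A16. The interval of the difference lay within 1.5-fold for 25 genes, beside 68.9% of all genes. For Htr1b the knockouts were below their wild types and the RKI homozygotes, at 0.577, 0.532 and 0.541 RPKM, were near 2 of their wild types, at 0.512 and 0.543 RPKM, with A16 at 0.222 RPKM.

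The wild types of the experiments were also compared, and line, litter, handling and any batch cannot be told apart there. None of the 63 genes passed the adjusted threshold, beside 0.0125% of all genes, and 1 had an unadjusted p under 0.05, beside 3.89%. That gene was Gria2, with 36.2, 42.9 and 40.9 RPKM in LC1 wild types and 46.7, 47.5 and 37.9 RPKM in RKI wild types and a log2 difference of 0.26 (SE 0.11, adjusted for sex). Glrb had 6.54, 6.12 and 6.11 against 7.33, 7.10 and 7.26 RPKM and was the only member whose groups did not overlap on TMM-scaled log2 CPM, beside 7.59% of all genes. In RPKM those of Htr2c were apart as well, with no share over all genes counted in RPKM. The log2 difference of Glrb was 0.17 (SE 0.09). Grin2c (0.98, SE 0.50), Grm4 (0.21) and Gria3 (0.16) completed the 5 smallest p. Without A9 the differences of Grm4 and Gria3 were 0.08 and 0.02. Of the 63 genes 47 were above 0 (74.6%), beside 47.9% of all genes, with a median of 0.07. This count was 21 without A9, with a median of -0.12, and 34 without the term for sex. The interval lay within 1.5-fold for 37 genes, beside 73.9% of all genes.

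Within the RKI experiment the sexes were compared as 4 males against the females A9 and A10. None of the 63 genes passed the adjusted threshold, beside 0.05% of all genes, and 3 had an unadjusted p under 0.05, beside 5.18%. Grm4, a Gi-coupled glutamate autoreceptor, had 4.19 and 4.13 RPKM in the females and 3.68, 3.03, 3.55 and 3.82 RPKM in the males, a log2 difference of -0.24 (SE 0.09). Grm8 differed by -0.35 (SE 0.13) and Chrna4 by -0.20 (SE 0.09). Gria2 (-0.18) and Gria4 (-0.14) followed. Without A9 the direction turned for Chrna4 (0.026) and Gria4 (0.0012), and the differences of Grm4 (-0.15) and Grm8 (-0.22) were smaller. That fit sets the female A10 against the homozygous males only. Of the 63 genes 14 were above 0 in males (22.2%), beside 49.7% of all genes, and the median was -0.10. The count rose to 39 and the median to 0.03 without A9, and to 28 and -0.02 without A16. The interval lay within 1.5-fold for 38 genes, beside 77.4% of all genes.

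Genes that act with the receptors were read from 4 lists. None of their tested genes passed the adjusted threshold in the LC1 or the RKI comparison in edgeR. Of all genes, 48.6% were above 0 in the LC1 and 50.6% in the RKI comparison. An unadjusted p under 0.05 was reached by 2.09% and 1.92% of all genes in edgeR. Of 27 auxiliary subunits and scaffolds of ionotropic glutamate receptors 14 were above 0 in the LC1 and 20 in the RKI comparison (7 without A16), and 0 had an unadjusted p under 0.05 in either. The smallest p belonged to Shisa6, an AMPA receptor auxiliary subunit (0.15, SE 0.08), and Cacng4 (-0.10, SE 0.07) in the LC1 comparison, and to the scaffold gene Homer2 (-0.12, SE 0.06) and Gsg1l (0.09, SE 0.06) in the RKI comparison. Of 12 chaperones, anchors and auxiliary subunits of acetylcholine, glycine and GABA-B receptors 4 were above 0 in the LC1 and 9 in the RKI comparison, or 8 without A16. Lypd1, a prototoxin that binds nicotinic receptors, differed by -0.22 (SE 0.10) in the LC1 comparison, Rapsn by 0.51 (SE 0.35), and the nicotinic chaperone Tmem35a by 0.14 (SE 0.08) in the RKI comparison. Rapsn, the anchor of muscle nicotinic receptors, had 0.390, 0.390 and 0.405 RPKM in RKI wild types and 0.120, 0.328 and 0.209 RPKM in homozygotes, a log2 difference of -0.86 (SE 0.34, unadjusted p = 0.0220 in edgeR).

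Of 20 genes of transmitter synthesis and transport 13 were above 0 in the LC1 and 14 in the RKI comparison (11 without A16). An unadjusted p under 0.05 was reached by 0 and 2 of them, beside 2.09% and 1.92% of all genes in edgeR. In the LC1 comparison the smallest p belonged to Gad2, which makes GABA (0.11, SE 0.08), and Slc17a8, a vesicular glutamate transporter (0.37, SE 0.29). The pair was Slc18a2, the vesicular monoamine transporter, and Ddc, which makes dopamine and serotonin from their precursors. Slc18a2 had 5.67, 6.14 and 6.00 RPKM in RKI wild types and 6.64, 6.68 and 7.61 RPKM in homozygotes (log2 difference 0.24, SE 0.08). Ddc had 0.980, 1.002 and 0.940 RPKM in RKI wild types and 1.44, 1.21 and 1.21 RPKM in homozygotes (0.41, SE 0.15). In RPKM all 3 homozygotes lay above all 3 wild types for both genes. On TMM-scaled log2 CPM, groups did not overlap for 5.67% of all genes in this comparison, and the share in RPKM was not counted. A16 was not apart from the other wild types for either gene. The 6 LC1 embryos had 1.24 to 1.82 RPKM of Ddc, all above the 3 RKI wild types. Of 18 G protein and desensitization genes 10 were above 0 in the LC1 comparison, where Rgs2 (-0.13, SE 0.07) and Ppp1r1b (0.16, SE 0.11) had the smallest p, and 12 in the RKI comparison (7 without A16), and Rgs8 (0.16, SE 0.07, unadjusted p = 0.0414 in edgeR) was the only one under 0.05, followed by Gnai1 (0.13, SE 0.10). Without A16 the differences were 0.07 for Rgs8, -0.00 for Gnai1, -0.05 for Homer2 and 0.08 for Tmem35a, and were 0.24 for Slc18a2, 0.36 for Ddc and -0.78 for Rapsn. The AMPA auxiliary genes Cacng7 and Cacng8 were listed at 0 in every library of the gene table, while their transcripts had estimates summing to 48674 and 4363, so the zeros do not show absence.

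The deposited transcript estimates gave a second readout of the same libraries. They list 222 transcripts of the 82 genes, of which 145 could be tested, and 0 passed an adjusted p of 0.05 over 47772 transcripts in edgeR in the LC1 or RKI comparison. An unadjusted p under 0.05 was reached by 4 member transcripts in the LC1 comparison, beside 2.97% of all transcripts, and by 6 in the RKI comparison, beside 2.45%. In the RKI comparison Gria4-001 had 3.39, 3.95 and 3.47 RPKM in wild types and 4.32, 5.004 and 4.47 RPKM in homozygotes (log2 difference 0.36, SE 0.09). Its groups did not overlap, and A16 was not the lowest wild type. Chrna4-001 had 4.23, 4.65 and 3.54 against 5.54, 5.33 and 4.79 RPKM (0.35, SE 0.09), again without overlap. Here A16, at 3.54 RPKM, was the lowest wild type. How often groups were apart over all transcripts was not counted, so the lack of overlap has no background to be read against. The other annotated Chrna4 isoform, Chrna4-002, had 2.98, 4.26 and 2.23 against 2.53, 3.28 and 4.42 RPKM, with overlap. Chrnb2-001 differed by 0.17 (SE 0.06). In the LC1 comparison the smallest p belonged to Grin1-001, estimated at 0.153, 0.325 and 0.320 RPKM in wild types and at 0 in all 3 knockouts. That isoform was also at 0 in 3 of the 6 RKI embryos, both genotypes included, and 14 Grin1 transcripts share the reads.

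The estimated isoform makeup was steady for some receptors and not for others. Gria2-001 made up 63.04% ± 3.15 (SD, n = 12) of the Gria2 estimates, Chrna4-001 60.3% ± 6.3 and Gabbr1-002 37.6% ± 3.3 of 11 annotated Gabbr1 transcripts. Grin2b-001 made up 64.2% ± 6.2. For Glrb an isoform annotated as a target of nonsense-mediated decay, Glrb-004, held 47.9% ± 8.9. For Htr7, whose reads are few, Htr7-005 lay between 0% and 52.8%. These shares are estimates among overlapping isoforms.

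The authors' deposited table of the LC1 comparison listed 81 of the 82 genes, with 0 past an adjusted p of 0.05 and 3 with an unadjusted p under 0.05 (Grm3, Adra1d and Htr1b), beside 4.32% of all its genes. The authors' deposited table of the RKI comparison listed all 82, with 0 past the adjusted threshold and 5 with an unadjusted p under 0.05 (Chrna4, Chrnb3, Grin3a, Htr2c and Adra1a), beside 2.76% of all its genes. In the authors' deposited tables Htr1b had a log2 fold change of -0.523 in the LC1 comparison and Adra1a 0.469 in the RKI comparison, the latter with its sign turned, since that table gives wild type minus homozygous.

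Several of the genes are neighbours on the reference annotation (GENCODE M21, GRCm38). Chrna5, Chrna3 and Chrnb4 lie side by side on chromosome 9 with gaps of 2331 and 1591 bases, and had medians of 0.458, 4.71 and 0.445 RPKM. Gria2 and Glrb lie 40763 bases apart on chromosome 3 at medians of 42.04 and 6.73 RPKM, and were named above in the comparison of the wild types. Chrnd and Chrng lie 4586 bases apart on chromosome 1, and both were near 0. Chrnb3 and Chrna6 are separated by 3481 bases and had 49 and 63 reads in all.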

How the data were processed

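The deposited tables hold gene counts made by the authors with featureCounts 1.4.5 of Subread after STAR 2.0.4b, per the submitters' processing notes, RPKM values that the authors derived from them, and estimated counts and RPKM per transcript. The sources used here gave neither the transcript method nor the genome build. The authors' comparison tables give log2 fold changes and p-values, made per the submitters' processing notes with edgeR and limma. RPKM followed count per library total within 0.00721%. Repeated rows (574) with identical counts were merged.

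Genes were tested with edgeR 4.0.16 in R 4.3.3: TMM scaling, the default filter by group (16002 genes left), quasi-likelihood F tests on 4 group means plus sex (7 residual degrees of freedom, 12 libraries), and Benjamini-Hochberg adjustment over all genes. Estimated transcript counts were rounded. The common biological coefficient of variation was 6.94%. Levels between genes are in RPKM only. The test was checked on simulated counts with larger changes than the receptor differences named here and without sex, litter or outlying-embryo effects. That check does not show how well differences as small as these are found. Members and lists were chosen with earlier results of these data known. Named were the 5 members with the smallest p per comparison, up to 4 highest per family, the partner genes with the 2 smallest p per list, and, after their values were seen, Grin2b, Htr2c, the genes named for A16 and single isoforms. Each group is 3 embryos, so p-values measure the spread between embryos. Some genes that the rule names are not reported here, in text or in figures that label genes.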

Additional observations from a re-analysis of the deposited data

How the results depend on the processing

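The counts of receptor genes past an adjusted p of 0.05 stayed at 0 in the 5 comparisons under median-of-ratios scaling, DESeq2, limma-voom, a fit of only the 6 libraries of the experiment, a fit without sex and leaving out each embryo in turn, where each could be run (range 0 to 0). The exception was the fit with no filter on low counts, where 1 gene passed in the RKI comparison, Grin3a (0.32, adjusted p = 0.0414 in edgeR, 27458 genes tested). That fit called 4 genes of all in the LC1 and 26 in the RKI comparison, against 0. The cause was not tested. With the filter, Grin3a differed by 0.32 with all 12 libraries and by 0.07 without A16. Leaving out each embryo gave 22 to 53 genes above 0 in the RKI comparison, lowest without A16, alternatives for this count chosen after seeing the data, 24 to 39 in the LC1, 21 to 57 in the line and 10 to 39 in the sex comparison. The median log2 fold change ran from -0.04 to 0.18 in the RKI and from -0.06 to 0.04 in the LC1 comparison. Leaving out either A9 or A10 reduces the RKI comparison to its males and raised the genes with an unadjusted p under 0.05 from 3 to 16 and 17, while the share over all genes rose from 1.92% to 8.17% and 8.24%. The sex differences ran from -0.29 without A10 to 0.0012 without A9 for Gria4 and from -0.42 to 0.026 for Chrna4, reversed without A9. Each of these fits sets 1 female against the 2 males of her own genotype, wild types without A10 and homozygotes without A9. The labels share no replicate numbers. A replicate block over neighbouring embryo numbers, which takes the place of sex, gave 0 receptor genes past the threshold in the LC1, RKI and difference comparisons and 1, 7 and 6 at an unadjusted p under 0.05, beside 2.71%, 2.56% and 3.11% of all genes. With the block 3 genes of all passed in the RKI and 1 in the difference comparison, against 0. Neighbours' deviations correlated by 0.0977 to 0.195. Compared only with the other genotype of their experiment, 12 of 12 embryos correlated best with their own neighbour. RKI neighbours also share their sex. This is a hint from the data and not from the design. The line comparison cannot be fitted with the block, nor the sex comparison. Transcript counts past the threshold were 0 in every alternative run. The intervals of 18 genes in the LC1 and 21 in the RKI comparison reached beyond a fold of 1.5, so differences of that size were not excluded there.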

Other observations

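Annotated exons of 25 of the 82 receptor genes overlap exons of another gene in GENCODE M21, and 9 do so over more than 10% of their exon bases: Adrb3, Chrna10, Chrnb2, Drd5, Grin1, Grin3b, Grm6, Htr1b and Htr2b. All 9 overlaps are with genes on the opposite strand. The receptor genes together took 0.242% of all counts in the RKI wild-type embryo A16 and 0.311% in A9, and 0.265% to 0.300% in the other 10 libraries.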
